A study of Mus musculus with 24 samples.

Results

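Mature myelin was examined through 8 genes, Mbp, Mobp, Mal, Mag, Mog, Cnp, Opalin and Ermn, which were chosen by symbol as markers of myelinating oligodendrocytes. All 8 were found among the 49568 gene symbols of the count files, and all 8 were among the 18482 genes that passed the filter on low counts. Whole hippocampi of male mice on a C57-Bl/6J background, aged 12 weeks per the labels, had been sequenced as poly-A RNA. WT SH mice carried the wild-type MSK1 gene (Rps6ka5) and lived in standard housing (SH, 6 libraries used), and WT EE mice carried it and were reared from birth in an enriched environment (EE, 5 libraries), which is a larger cage with a running wheel and toys that were changed. KD SH mice (6 libraries) and KD EE mice (5 libraries) were homozygous for a point mutation in the endogenous MSK1 gene that leaves its N-terminal kinase domain inactive, in standard or enriched housing. The WT and MSK1 KD mice came from separate homozygous lines, so that line and genotype cannot be told apart. Of 24 libraries, 33B (WT EE) and 34B (KD EE) had failed quality control and were left out, and the study itself used 17 of the other 22.

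Myelin is the multilayered membrane that oligodendrocytes wrap around axons in the central nervous system, and in the hippocampus it is densest in the white matter tracts such as the fimbria and alveus. A cell that matures from a precursor switches on these genes late, under transcription factors such as Sox10 and Myrf. Their products build the compacted layers, hold the innermost wrap to the axon, or shape the cytoplasmic channels of the sheath. In bulk tissue, fewer oligodendrocytes and less myelin RNA in each of them cannot be told apart.

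The 22 libraries held between 8911999 and 56752074 counts on genes (median 30265900), so that 3 counts stood for 0.0529 to 0.337 CPM (the count relative to the TMM-scaled total of the library, by edgeR). Every library had at least 207 counts on each of the 8 genes, and floors of this kind cover counting error only. The fragments outside single genes were between 14.05% and 18.6%, with the highest share in library 35A (WT EE). Rps6ka5, the mutated gene, was at 24.9 ± 2.21 CPM (SD, n = 6) in WT SH and 25.4 ± 2.18 (n = 6) in KD SH, and a point mutation is not visible in its count. The 9 hippocampal neuron markers were detected throughout, with a sum between 1054 and 1667 CPM, led by Zbtb20 and Mpped1.

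Per length of exon, Mbp was the most abundant of the 8 and Opalin the least. Mbp, which encodes myelin basic protein, the protein that seals the cytoplasmic faces of the compact sheath, stood at 285 ± 29.5 CPM per kilobase (SD, n = 22). Mobp, a second basic protein of compact myelin, stood at 113 ± 11.3, and Cnp, a phosphodiesterase of the cytoplasmic channels, at 90.0 ± 9.85 CPM per kilobase. Mal, a proteolipid that sorts myelin membrane, stood at 84.5 ± 10.4 and did not differ from Cnp beyond their spread. Mag, the adhesion protein that faces the axon, stood at 45.7 ± 5.30 CPM per kilobase, Mog, an immunoglobulin-family protein of the outermost surface, at 33.1 ± 4.11, Ermn, an actin-binding protein of late oligodendrocytes, at 17.6 ± 3.42, and Opalin, a membrane protein of mature oligodendrocytes, at 8.84 ± 1.77. Of the summed CPM of the 8 genes, Mbp alone made up 59.1% ± 1.72 (SD, n = 22) and Mobp 19.0% ± 1.35. The counts of Mbp (ENSMUSG00000041607) include any transcripts of the longer Golli form, which share the gene.

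In GRCm38 (GENCODE M21), Mobp (ENSMUSG00000032517) lies on chromosome 9 from 120149707 to 120181484, Mal (ENSMUSG00000027375) on 2 from 127633226 to 127656695, Mag (ENSMUSG00000036634) on 7 from 30899176 to 30914873, Mog (ENSMUSG00000076439) on 17 from 37010743 to 37023398, Cnp (ENSMUSG00000006782) on 11 from 100574904 to 100591729, Opalin (ENSMUSG00000050121) on 19 from 41061710 to 41077113, and Ermn (ENSMUSG00000026830) on 2 from 58045113 to 58052864. Cnp shares exonic bases with Dnajc7 and Ermn with Galnt5, each on the opposite strand, and since the counting ignored strand, reads there cannot be assigned to one gene of the pair.

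The 250 bases before the start site were searched, on both strands, for ACAANG, the core that SOX-family factors such as Sox10 bind, for CTGGCAC, the core of the Myrf motif, and for the E-box CAGCTG, in the RefSeq promoters (GRCm38.p6) of the 7 genes that matched by symbol, which were all but Mbp. These genes have 9 windows, 3 of them of Mag, of which 2 overlap. ACAANG was in 8 of the 9 windows (6 of the 7 genes), against 36.3% of all 32851 windows of this length. CTGGCAC was in 3 of the 9, 1 of Cnp and the 2 overlapping windows of Mag, against 4.19% of all windows, and CAGCTG in 0 of the 9, against 13%. Within a window the matches did not overlap. Mobp, with 6 matches to ACAANG, had the most, and Mal had none. The windows of Mog, Opalin and Ermn are shown because these 3 genes had the largest differences between housing conditions, and that of Mag because it holds both motifs. They are written 5′ to 3′ in the direction of the gene, all on the minus strand, from chr17:37023399-37023648 (Mog), chr19:41077114-41077363 (Opalin), chr2:58052865-58053114 (Ermn) and chr7:30914864-30915113 (Mag), and the capitals mark ACAANG or its reverse complement and, in Mag, CTGGCAC.
Mog: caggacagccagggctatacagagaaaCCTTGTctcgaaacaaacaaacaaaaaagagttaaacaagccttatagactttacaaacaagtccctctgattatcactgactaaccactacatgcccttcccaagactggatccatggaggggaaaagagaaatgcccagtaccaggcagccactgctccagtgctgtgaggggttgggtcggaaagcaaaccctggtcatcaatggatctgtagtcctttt
Opalin: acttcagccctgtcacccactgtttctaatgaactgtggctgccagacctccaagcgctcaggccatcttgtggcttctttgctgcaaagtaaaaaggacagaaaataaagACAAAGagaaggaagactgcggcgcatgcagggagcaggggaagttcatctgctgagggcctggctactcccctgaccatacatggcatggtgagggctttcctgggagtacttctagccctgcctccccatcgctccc
Ermn: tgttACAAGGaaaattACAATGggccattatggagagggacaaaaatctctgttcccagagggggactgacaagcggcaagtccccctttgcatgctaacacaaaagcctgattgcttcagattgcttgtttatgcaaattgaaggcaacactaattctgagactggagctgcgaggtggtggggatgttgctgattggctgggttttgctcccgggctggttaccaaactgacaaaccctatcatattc
Mag: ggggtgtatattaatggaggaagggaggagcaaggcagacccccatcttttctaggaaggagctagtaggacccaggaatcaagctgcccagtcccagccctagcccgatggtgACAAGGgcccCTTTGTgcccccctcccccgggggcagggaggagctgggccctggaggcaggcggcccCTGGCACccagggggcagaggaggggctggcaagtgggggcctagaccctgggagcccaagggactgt
A match is a description of the sequence and is not evidence that a factor binds there.

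The housing comparison asked whether rearing in enrichment changed the level of these genes. None of the 8 was called in any of the 7 comparisons of groups over the 22 libraries (edgeR quasi-likelihood test with Benjamini-Hochberg adjustment over all 18482 genes, where a call needs an adjusted p up to 0.05 and a log2 change of at least 0.38 either way). Averaged over the genotypes, all 8 had fitted levels below standard housing in the enriched groups, with a median log2 difference of -0.15 and a range from -0.31 (Opalin) to -0.04 (Mobp), whereas the median over all genes was 0.00. Over all genes, 48.3% were lower in enrichment at any p. For 5 of the 8 (Mog, Opalin, Mbp, Ermn and Cnp) the unadjusted p was under 0.05 with the level lower in enrichment, which held for 7.28% of all genes, and 0.146% of all genes (27) were called in this comparison, 0.0271% with a lower level. By the adjusted p alone, 0.265% of all genes passed and 0 of the 8.

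**Figure D1:**
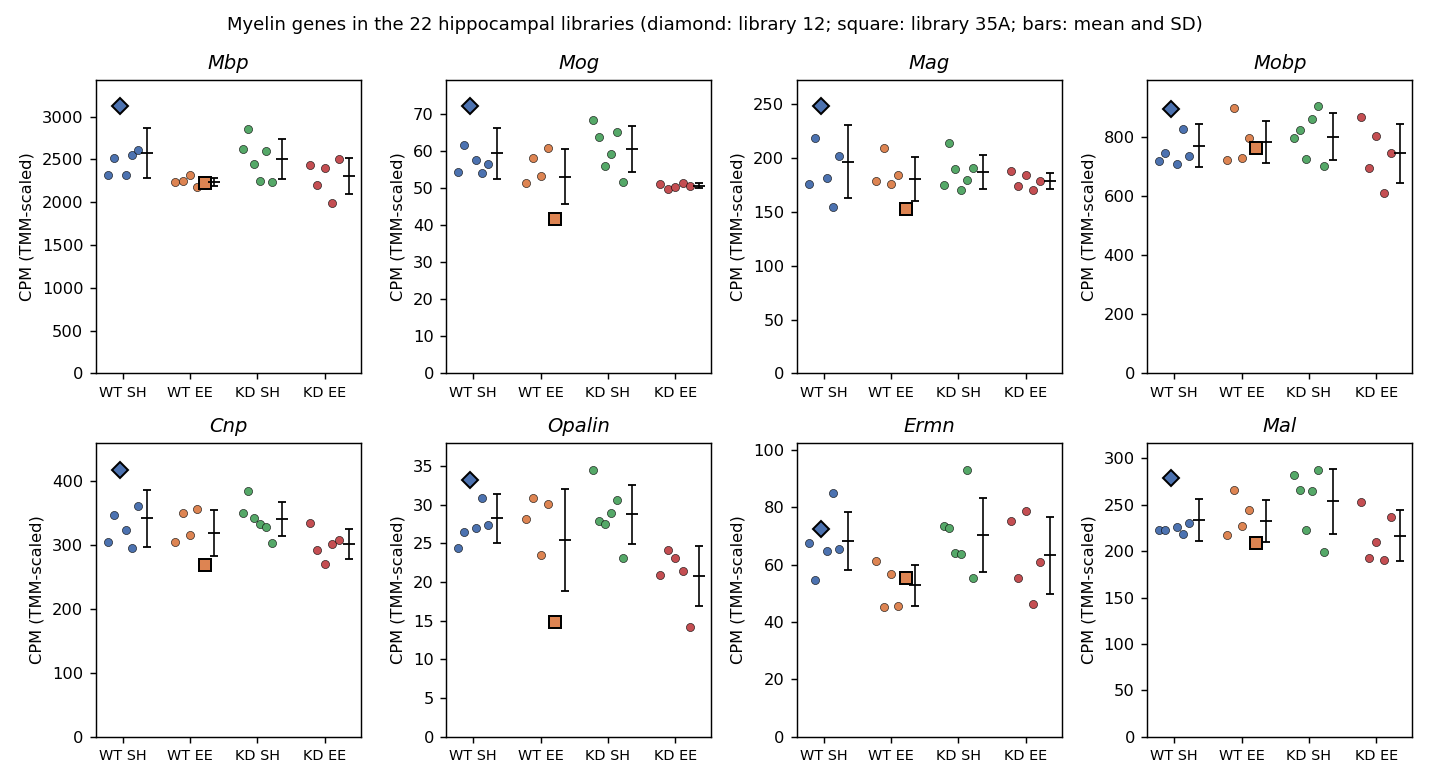
Level of each of the 8 myelin genes in the 22 libraries. Each point is the TMM-scaled CPM of 1 library (axes start at 0), grouped by genotype and housing, with the mean and SD of the group beside it, a diamond for library 12 and a square for library 35A. Library 12 has the highest level of Mbp, Mog, Mag and Cnp, and the KD EE libraries lie close together in Mog, between 50.0 and 51.6 CPM.

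Among the proteins of compact myelin, Mbp was at 2321 CPM in the lowest, 2530 in the median and 3119 in the highest WT SH library, and at 2231, 2247, 2315, 2175 and 2223 CPM in the WT EE libraries 16, 17, 31B, 33A and 35A. In TMM-scaled CPM, every WT EE library lay below every WT SH library (2315 CPM in 31B against 2321 CPM in 10). Leaving out library 12, the highest of WT SH, cannot change this order. Such a separation was found for Mbp alone of the 8 in WT mice, and for 0.73% of all genes. It did not hold for Mbp by total counts alone. There, library 17 of EE (56085 of 24207860 counts on genes) stood above library 13 of SH (93758 of 40854571). The fitted log2 fold change of Mbp in WT was -0.20 (SE 0.08, 95% interval -0.36 to -0.04, edgeR adjusted p = 0.439), and without library 12 it was -0.14. In MSK1 KD mice, Mbp ranged from 2240 (median 2522) to 2853 CPM in SH and was at 2433, 2201, 2404, 1988 and 2502 CPM in libraries 7, 8, 9, 32A and 36A of EE. These groups overlapped, and the fold change was -0.12 (SE 0.08, adjusted p = 0.623).

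Mobp had the smallest difference between housing conditions when averaged over the genotypes, where its fitted values had opposite signs (0.02 in WT and -0.11 in MSK1 KD), while Mal had the smallest in WT and Mag in MSK1 KD. Its level was 771 ± 73.1 CPM (SD, n = 6) in WT SH, 783 ± 71.3 (n = 5) in WT EE, 802 ± 78.3 (n = 6) in KD SH and 745 ± 98.7 (n = 5) in KD EE, and the averaged log2 difference was -0.04 with a 95% interval from -0.17 to 0.08. In WT mice it was the only one of the 8 with a higher fitted value in EE, and that sign changed in 3 of the 22 fits that leave out 1 library. Mal averaged 233 ± 22.8 CPM (n = 6) in WT SH against 233 ± 22.7 (n = 5) in WT EE, with a log2 difference of -0.00 (95% interval -0.20 to 0.19). In MSK1 KD mice, Mal was between 200 (median 265) and 288 CPM in SH and at 252, 193, 210, 190 and 237 CPM in the EE libraries 7, 8, 9, 32A and 36A. The 2 KD groups overlapped, with a log2 fold change of -0.23 (SE 0.09, unadjusted p = 0.0218, edgeR adjusted p = 0.48).

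Of the surface and adhesion proteins, Mog had the lowest adjusted p of the 8. In MSK1 KD mice it was between 51.8 (median 61.6) and 68.4 CPM in SH, and at 51.1, 50.0, 50.3, 51.6 and 50.6 CPM in the EE libraries 7, 8, 9, 32A and 36A. In TMM-scaled CPM, every KD EE library lay below every KD SH library (51.6 CPM in 32A against 51.8 CPM in 6). The same order of groups was found for 0.314% of all genes. For Mog it did not hold by total counts alone. There, library 32A (1701 of 32629343 counts on genes) stood above library 6 (1841 of 35426792). The SD of Mog in KD EE, 0.648 CPM, was 1.28% of the mean, which is less than the 3.23% that counting alone gives at this depth. Its log2 fold change was -0.26 (SE 0.09, 95% interval -0.44 to -0.08, edgeR adjusted p = 0.457). In WT mice Mog was between 54.1 (median 57.1) and 72.2 CPM in SH and at 51.5, 58.3, 53.2, 61.0 and 41.9 CPM in EE (libraries 16, 17, 31B, 33A and 35A), groups that overlapped, with a fold change of -0.16 (SE 0.09, adjusted p = 0.636). Averaged over the genotypes the difference of Mog was -0.21 (SE 0.06, 95% interval -0.34 to -0.08, unadjusted p = 0.00213, edgeR adjusted p = 0.0907).

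Mag showed no difference beyond its spread. It was at 196 ± 33.4 CPM (n = 6) in WT SH, 180 ± 20.4 (n = 5) in WT EE, 186 ± 15.7 (n = 6) in KD SH and 179 ± 7.42 (n = 5) in KD EE, with an averaged log2 difference of -0.09 (95% interval -0.23 to 0.04). Cnp averaged 342 ± 44.9 CPM (n = 6) in WT SH against 320 ± 35.8 (n = 5) in WT EE. In MSK1 KD mice it was between 303 (median 338) and 385 CPM in SH and at 335, 292, 271, 302 and 309 CPM in the EE libraries 7, 8, 9, 32A and 36A, with a log2 fold change of -0.18 (SE 0.08, unadjusted p = 0.047, edgeR adjusted p = 0.516). For Cnp the groups overlapped in both genotypes.

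Opalin and Ermn, which mark the last stages of oligodendrocyte maturation, had the largest averaged differences and also the widest errors. Opalin was between 23.1 (median 28.4) and 34.5 CPM in KD SH, whereas it stood at 20.96, 24.1, 23.0, 21.4 and 14.2 CPM in the KD EE libraries 7, 8, 9, 32A and 36A, so that 1 EE library, 8, lay above the lowest SH library, 6. Its log2 fold change in MSK1 KD was -0.47 (SE 0.15, 95% interval -0.79 to -0.16, unadjusted p = 0.00432, edgeR adjusted p = 0.453). Over the study's 17 libraries, which leave out library 9 of KD EE and library 2 of KD SH, Opalin was called in this comparison (log2 fold change -0.52, edgeR adjusted p = 0.0262), 1 of 325 genes called among 18701 in that fit against 0 over the 22 libraries. The study had chosen these 17 by how well libraries correlated within their group, a choice on the data themselves that can lower p-values. Without library 36A, the lowest, the log2 fold change of Opalin in MSK1 KD was -0.35 over the other 21. In WT mice Opalin was between 24.4 (median 27.2) and 33.2 CPM in SH and at 28.1, 30.8, 23.5, 30.1 and 14.9 CPM in EE (libraries 16, 17, 31B, 33A and 35A), where 35A stood far below the other EE libraries. The WT value was -0.15 (SE 0.15, adjusted p = 0.842) with 35A and -0.01 without it.

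Ermn had its largest difference in WT mice. It was between 54.7 (median 66.4) and 84.9 CPM in WT SH and at 61.2, 45.1, 56.6, 45.4 and 55.2 CPM in the WT EE libraries 16, 17, 31B, 33A and 35A, which overlapped only through library 11 of SH. Its log2 fold change was -0.37 (SE 0.13, 95% interval -0.64 to -0.10, unadjusted p = 0.00913, edgeR adjusted p = 0.424). This value stayed negative over the 17 libraries (-0.42) and without libraries 12 and 35A (-0.38), without passing the adjusted threshold in either. In MSK1 KD mice Ermn was between 55.3 (median 68.4) and 93.0 CPM in SH and at 75.1, 55.4, 78.5, 46.3 and 60.8 CPM in EE, with a fold change of -0.16 (SE 0.13, adjusted p = 0.7).

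**Figure D2:**
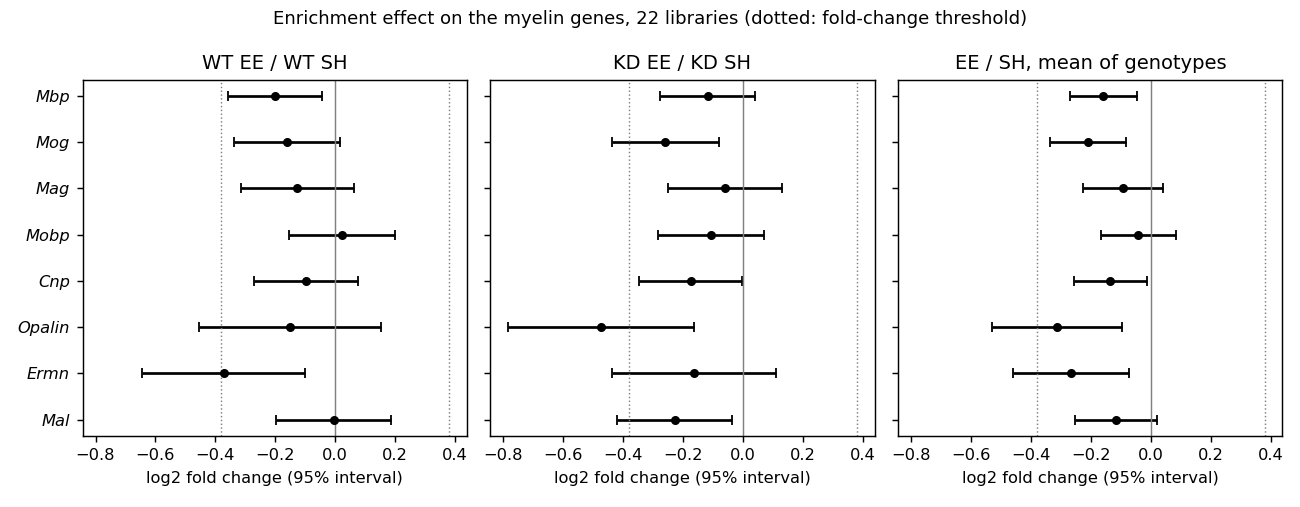
Fitted log2 fold change of each myelin gene on enrichment, in WT, in MSK1 KD and averaged over both. Points are edgeR estimates over the 22 libraries, bars are 95% intervals, the grey line is 0 and dotted lines mark the fold-change threshold. In the averaged panel all 8 points lie left of 0, and the intervals of Mbp, Mog, Cnp, Opalin and Ermn do not reach it.

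Within the genotypes, 7 of the 8 genes had lower fitted levels in EE in WT mice (median -0.14), where 47.9% of all genes were lower, and 8 of 8 in MSK1 KD mice (median -0.17), where 49.1% were. At an unadjusted p under 0.05, 2 were lower in WT (Ermn and Mbp), against 3.4% of all genes (8.65% in either direction), and 4 in MSK1 KD (Opalin, Mog, Mal and Cnp), against 4.6% (9.63% in either direction). The WT count was 1 without library 12, 3 without library 10, 17 or 33A and 4 without library 14, and the KD count was 2 without library 1, 8 or 32A. No gene of the whole table was called in either comparison by edgeR (0% of 18482), with 1598 in WT and 1779 in MSK1 KD at an unadjusted p under 0.05, and DESeq2 called 20 and 3. The WT median depended on 2 libraries. It was 0.01, with 3 of 8 genes lower, without libraries 12 (SH) and 35A (EE), and 0.04, with 2 of 8 lower (Mbp and Ermn), over the study's 17 libraries, which leave out both. The KD median was -0.17, with 8 of 8 lower, in each of these sets. Libraries 12 and 35A are both WT, so that leaving them out does not test the KD value. Without 1 library the KD median ran from -0.23 (without 7) to -0.13 (without 32A), with 8 of 8 lower.

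Whether the response to enrichment differed between the genotypes was tested by the interaction of genotype and housing, coded as the fold change in WT minus that in MSK1 KD. Its values were between -0.21 (Ermn) and 0.32 (Opalin), with 0 of 8 called or at an unadjusted p under 0.05, and edgeR called 0% of all genes, with 377 (2.04%) at an unadjusted p under 0.05. The interval of the Opalin difference reached from -0.11 to 0.76, that of Mal from -0.05 to 0.50 and that of Ermn from -0.59 to 0.17. Over the study's 17 libraries the interaction of Opalin was 0.64, that of Mal 0.32 and that of Mog 0.24, each with an unadjusted p under 0.05 (1031 of 18701 genes), and the lowest edgeR adjusted p of the 8 was 0.871. The separation of Mbp in WT and of Mog in MSK1 KD, seen in TMM-scaled CPM, is therefore not a tested difference between the genotypes.

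Between the genotypes, none of the 8 differed beyond the error. In standard housing the WT values minus those in MSK1 KD were between -0.12 (Mal) and 0.08 (Mag) on the log2 scale, with 5 of 8 lower in WT, where 52.2% of all genes were lower. That count was 8 of 8 without library 12 and 3 of 8 without library 1 of KD SH. In enrichment they were between -0.25 (Ermn) and 0.30 (Opalin), with 2 of 8 lower, where 49% of all genes were lower. At an unadjusted p under 0.05 there were 0 of 8 in either comparison, against 5.76% and 2.61% of all genes (2.95% and 1.14% with a lower level in WT). Averaged over housing, 3 of 8 were lower in WT, where 49.8% of all genes were, and this count ran from 1 (without library 1, 5, 7, 16 or 36A) to 5 (without library 6 or 12). In this comparison 0 of 8 had an unadjusted p under 0.05, against 6.06%. The median was 0.01 (-0.01 without library 12), and the 95% interval of Mbp, the most precise of the 8, was -0.11 to 0.11, whereas that of Opalin was -0.08 to 0.35. Ranked by mean CPM over the 4 groups, 22 of the 24 gaps between neighbouring groups were smaller than 1 pooled SD of the gene. The 2 others, WT SH to WT EE in Mog and WT EE to KD EE in Opalin, were 1.05 and 1.06 SD.

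The rest of the myelin and oligodendrocyte genes were taken from lists that were chosen with earlier results of these data known. Of 18 other myelin protein genes, 17 had lower fitted levels in EE averaged over the genotypes (median -0.16), 8 with an unadjusted p under 0.05, and 0 were called. Sept4, a septin filament protein of the sheath, had a log2 difference of -0.21 (SE 0.06, edgeR adjusted p = 0.0699) and Cntn2, an adhesion protein of the region beside the node, 0.01. Gpr37, a receptor of differentiating oligodendrocytes, passed the adjusted p (0.0406) with a log2 difference of -0.23, under the fold threshold. Without library 12 the list median was -0.13, with 16 of 18 lower, and over the 17 libraries it was -0.11, with 14 lower.

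Of 7 genes for the synthesis of myelin lipids, 6 were lower in EE (median -0.09), 3 lower and 1 higher at an unadjusted p under 0.05, and 0 were called. Ugt8a, which makes galactosylceramide, was at -0.22 (SE 0.08, edgeR adjusted p = 0.165), Fa2h, which hydroxylates its fatty acids, at -0.15 and Cers2, a ceramide synthase for long chains, at -0.04. Of 10 transcription factors of the lineage, 8 were lower (median -0.07), 3 at an unadjusted p under 0.05, and 0 were called. Sox10 was at -0.19 (SE 0.06, adjusted p = 0.119), while Myrf was at -0.06 and Olig1 at -0.05.

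In earlier stages of the lineage the medians were closer to 0 than that of the 8 myelin genes, though near the -0.07 of the transcription factors. Of 7 genes of newly formed oligodendrocytes, 4 were lower (median -0.04), 1 lower and 1 higher at an unadjusted p under 0.05, with Fyn, a kinase, at -0.06, Bcas1 at -0.11 and Gpr17, a receptor of this stage, at 0.04. An 8th gene of that list was not matched to a symbol of the files. Of 8 precursor genes, 7 were lower (median -0.06) and 1 was called. This was Lhfpl3, a membrane protein of precursors, with means of 16.5 CPM in WT SH, 12.2 in WT EE, 17.4 in KD SH and 12.1 in KD EE and a log2 difference of -0.47 (SE 0.09, edgeR adjusted p = 0.0406), which lost its call in 10 of the 22 fits that leave out 1 library. Of 5 genes of peripheral myelin, 3 were tested and 0 of these were lower (median 0.18). Pmp2, a lipid-binding protein of that myelin, was under 3 counts in 21 of the 22 libraries.

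**Figure D3:**
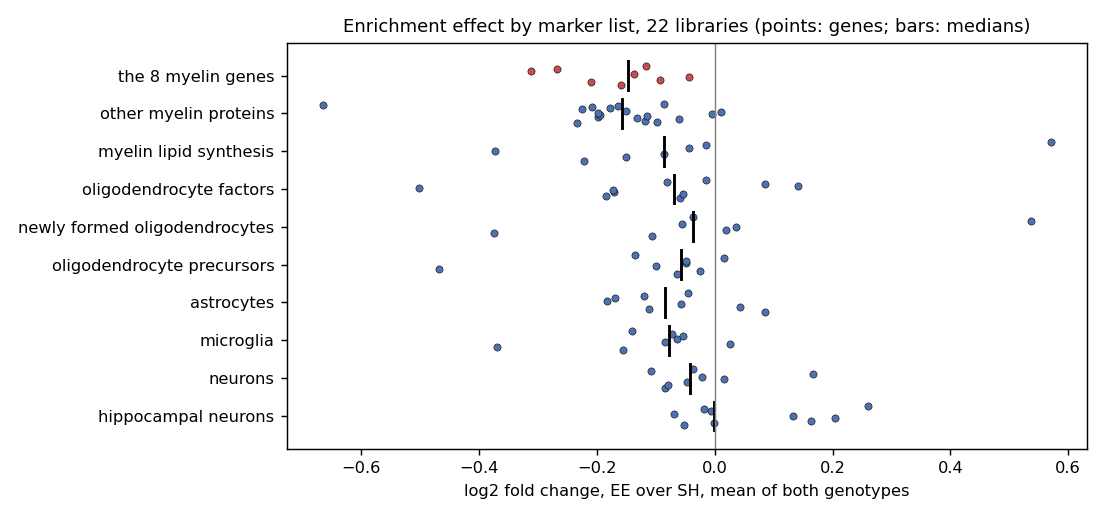
Log2 fold change of EE over SH, averaged over the genotypes, for the genes of 10 lists. Each point is 1 gene (the 8 myelin genes in red), the bars are list medians and the grey line is 0. The median is -0.15 for the 8 myelin genes and -0.16 for other myelin proteins. It lies nearer to 0 for every other list, among them myelin lipid synthesis (-0.09), astrocytes (-0.08) and precursors (-0.06).

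Markers of other cells and tissues were examined in the same comparison. All 10 choroid plexus genes, among them Kl and Clic6, were higher in EE at an unadjusted p under 0.05 (median log2 difference 2.32, 0 called), and their summed level was 31.8 to 246 CPM in WT SH, 29.2 to 765 in WT EE, 28.2 to 356 in KD SH and 54.8 to 731 in KD EE. The 11 thalamic genes tested (led by Prkcd and Plekhg1) were all lower in EE, with a median of -0.28 that was -0.01 without library 12, and with summed levels of 105 to 505, 106 to 140, 106 to 198 and 106 to 146 CPM in the same order of groups. The medians were -0.08 for 8 astrocyte genes (Slc1a2, Aldoc; 6 lower), -0.08 for 8 microglial genes (Csf1r among them; 7 lower, and P2ry12, a purine receptor singled out after its value was seen, at -0.37 with an edgeR adjusted p of 0.0406, under the fold threshold), -0.04 for 8 neuronal genes (Snap25, Syt1; 6 lower), 0.01 for 6 endothelial genes (Flt1, Slco1a4; 2 lower), 0.20 for 5 blood genes (Hbb-bs, Hba-a1; 0 lower), -0.10 for 11 striatal genes (Pde10a, Ppp1r1b; 10 lower) and -0.00 for the 9 hippocampal genes (5 lower). Of these lists, Gbx2, a thalamic transcription factor, was under 3 counts in 20 of the 22 libraries, Kcnj13, a potassium channel of the choroid plexus, in 2 and Tnnt1 in 1, and the rest reached it in every library. The part of choroid plexus and thalamic RNA in the differences of the myelin genes was not tested.

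Library 12, a WT SH library that the study had removed for poor correlation with its group, had higher levels of the myelin genes than the rest of its group. In it 7 of the 8 genes, all but Ermn, were the highest of the 6 WT SH libraries, which holds for 22.1% of all genes, and 4 of the 8 (Mbp, Mog, Mag and Cnp) were the highest of all 22, which holds for 3.83%. Mbp was at 3119 CPM in library 12 and between 2321 and 2615 CPM in the other 5. Mag was at 247 CPM against 154 to 219, Cnp at 418 against 295 to 362, and Mog at 72.2 against 54.1 to 61.8 CPM. The ratio of library 12 to the mean of the other 5 was between 1.07 (Ermn) and 1.33 (Mag), with a median of 1.26, whereas the median ratio over all genes was 0.996. With 1 library there is no test of this difference.

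The same library stood out in thalamic genes. The summed level of the 12 thalamic genes was 505 CPM in library 12 and 105 to 160 CPM in the other 5 WT SH libraries, 11 of the 12 were the highest of the 22 libraries, and their median ratio was 4.48. Prkcd, a kinase of thalamic relay neurons, was at 153 CPM against 23.3 to 38.01. The choroid plexus genes summed to 246 CPM against 31.8 to 124. The excess of the myelin genes was shared by the other myelin proteins (median ratio 1.26, 11 of 18 the highest of 22) and the lipid genes (1.23), and was smaller in the transcription factors (1.15), newly formed oligodendrocytes (1.078) and precursors (1.07). The ratios of astrocyte (1.03), microglial (1.01), neuronal (0.969), endothelial (1.18), blood (1.04), peripheral myelin (1.06), striatal (0.803) and hippocampal genes (0.86) ranged on both sides of 1. The part of thalamic tissue in the levels of the myelin genes was not tested. Leaving out library 12 moved the averaged median of the 8 genes on enrichment from -0.15 to -0.12, with 8 of 8 lower in both.

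**Figure D4:**
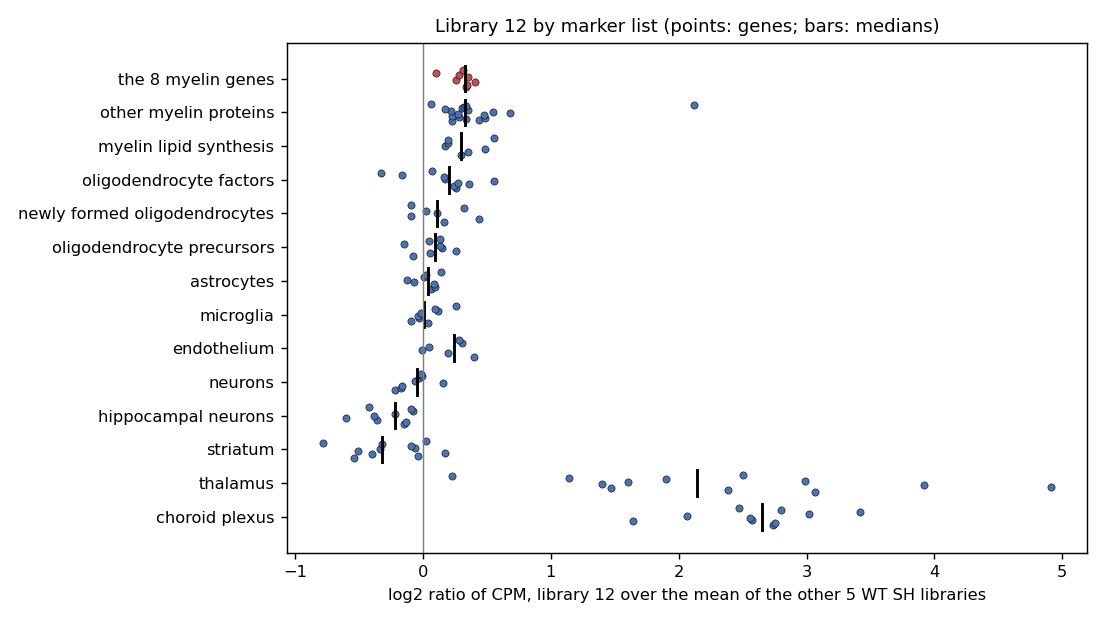
Log2 ratio of the CPM in library 12 to the mean of the other 5 WT SH libraries, for the genes of 14 lists. Each point is 1 gene, the bars are list medians and the grey line is a ratio of 1. All 8 myelin genes (red) lie right of 0, and the thalamic and choroid plexus genes lie further right, with median ratios of 4.48 and 6.30.

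Between libraries of the same group most of the 8 genes varied together, with Ermn and Opalin the least. Of the 28 pairs, 26 had a positive Pearson correlation of log2 CPM after the group means were removed, with a median r of 0.47 over the 22 libraries. By a permutation test with 100000 resamples within groups, two-sided and adjusted over the 28 pairs, 15 passed an adjusted p of 0.05 by Pearson's r and 10 by Spearman's rho. Pairs of other genes were not tested, so that no share over all genes stands beside these counts. Mobp and Mal were the closest pair (r = 0.81, permutation p = 0.0001, adjusted p = 0.00121; rho = 0.81, adjusted p = 0.00238), and without the 2 libraries farthest from the median of Mobp r was 0.78. Mog and Cnp had r = 0.81 (permutation p = 0.00013, adjusted p = 0.00121; rho = 0.76, adjusted p = 0.0028; 0.68 without the 2 farthest), and Mag and Cnp r = 0.79 (permutation p = 0.00025, adjusted p = 0.00175; rho = 0.72, adjusted p = 0.00733; 0.67 without the 2 farthest). Ermn had the lowest median r to the other 7, 0.11, and negative values with Mag (r = -0.20, permutation adjusted p = 0.413) and Cnp (r = -0.15, adjusted p = 0.557). It passed with Mbp (r = 0.54, permutation adjusted p = 0.0445; rho = 0.66, adjusted p = 0.0134) and by r with Mobp (r = 0.55, permutation adjusted p = 0.0445; rho = 0.47, adjusted p = 0.0866), and with neither without library 12. Opalin passed only with Mog (r = 0.70, permutation p = 0.00061, adjusted p = 0.00285; rho = 0.59, adjusted p = 0.0272; 0.53 without the 2 farthest).

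Without library 12 the median r was 0.36, with 25 of 28 positive, and 6 pairs passed by r and 4 by rho, and over the 17 libraries 1 pair passed by r and 0 by rho, at a median r of 0.35. Mobp with Mal (0.78), Mog with Cnp (0.74) and Mag with Cnp (0.70) remained high without library 12. The 8 values of a library share its depth and its scaling factor.

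**Figure D5:**
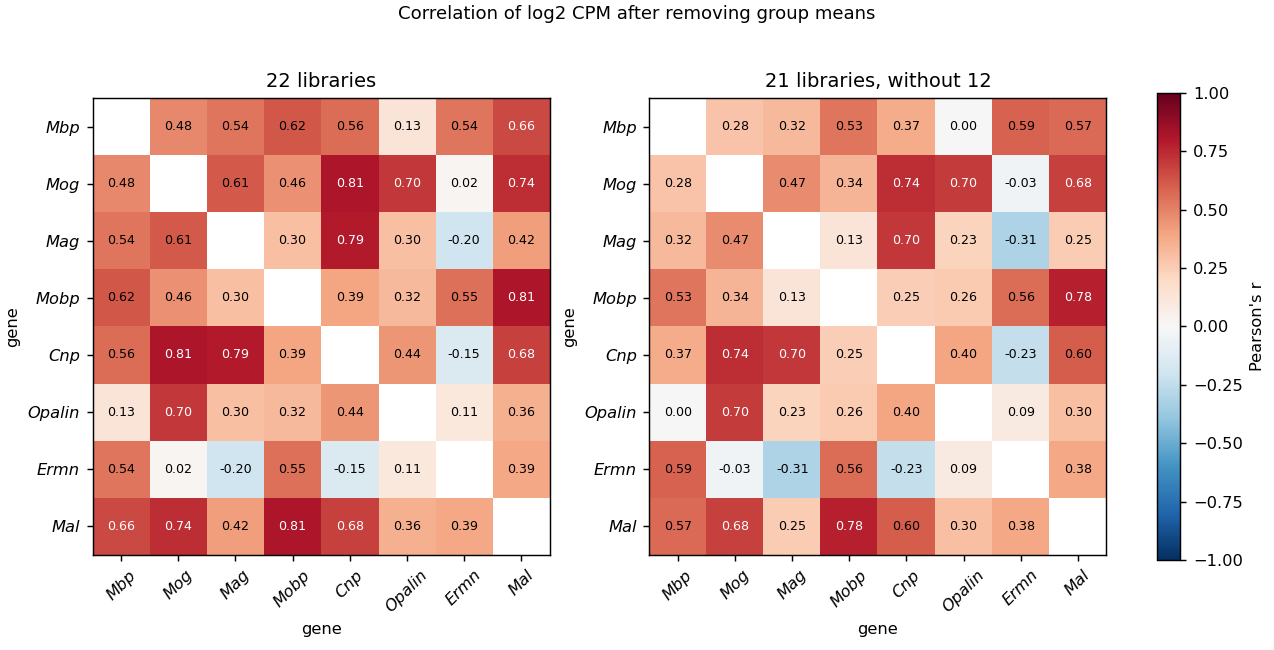
Pearson's r between the myelin genes across libraries, after removal of group means, with all 22 libraries (left) and without library 12 (right). The color runs from -1 to 1 and each cell prints its r. Ermn has pale or blue cells with Mag, Cnp and Mog in both, while Mobp with Mal keeps 0.81 and 0.78.

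For likeness to the mean of the 8, group means were not removed, so that differences between groups enter these correlations. Among the 10 genes whose log2 CPM was most like the mean of the 8, over 22 libraries and among 15013 genes, were Tmem88b (r = 0.86), S100b (0.85), Plekhb1 (0.85), Tspan2 (0.84), Sept4 (0.84), Rnf13 (0.84), Bpgm (0.84), Trim59 (0.83) and Gpr37 (0.83). Of these, Tmem88b, Tspan2, Sept4 and Gpr37 were in the list of other myelin proteins. Of the 18 genes of that list, 9 were among the 100 most alike, with a median r of 0.68 (5 and 0.58 without library 12). Without library 12 the 10 were Sec11c (0.88), Trim59 (0.87), Rnf13 (0.86), Bpgm (0.83), S100b (0.83), H2afv (0.83), Tmem88b (0.82), 1110004F10Rik (0.82), Rcn2 (0.82) and Haus2 (0.82). Trim59, Rnf13, Bpgm, S100b and Tmem88b were in both. The median r was 0.53 for myelin lipid genes, 0.40 for the transcription factors, 0.21 for precursors and 0.05 for newly formed oligodendrocytes over the 22 libraries, and 0.41, 0.18, 0.16 and -0.11 without library 12. Outside the lineage it was 0.49 for thalamic, 0.43 for microglial, 0.26 for blood and 0.22 for astrocyte genes. Without library 12 these were 0.17, 0.37, 0.35 and 0.18. Over the 22 libraries the remaining lists lay between -0.49 (peripheral myelin) and 0.03 (striatum).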

How the data were processed

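RNA from whole hippocampi had been prepared as poly-A TruSeq libraries and sequenced in pairs. After trimming by Skewer, the authors mapped reads to GRCm38 by STAR 2.5, and HTSeq assigned uniquely mapped reads to gene symbols, ignoring strand. Raw counts as deposited were used, and the authors' table of scaled counts for 17 libraries was not used. The members and the gene lists were chosen with earlier results of these data known.

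Over the 22 libraries with a count file that passed quality control, genes were filtered with filterByExpr, scaled by TMM and fitted as 4 group means with the quasi-likelihood test of edgeR 4.0.16 in R 4.3.3, with Benjamini-Hochberg adjustment over 18482 genes. A call needed an adjusted p of 0.05 and an absolute log2 fold change of 0.38. P-values measure the spread between libraries, which the labels do not tie to separate mice. Depth was 8911999 to 56752074 counts on genes. Correlations used log2 CPM with a prior count of 2. The alternatives were other sets of libraries, scalings, filters and DESeq2 1.42.0, and 1 of them, without libraries 12 and 35A, was chosen after seeing the data. The genes named in the text are the 8 members, the genes called or else the 3 most abundant of each oligodendrocyte list, the 2 most abundant and any undetected gene of every other list, Rps6ka5 and the 10 genes most alike. The fit was tested on simulated data for WT EE against WT SH over 18270 genes, where 50.7% of changes of 0.4 and 97.0% of changes of 0.8 on the log2 scale were recovered. There were 10 false calls, and a change of 0.4 lies close to the threshold of 0.38. The simulated counts were drawn independently for each gene, unlike real libraries, so that these shares need not hold for the real data. Promoters are RefSeq sequences on GRCm38.p6. Some genes that this rule names are not reported here.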

Additional observations from a re-analysis of the deposited data

Results flagged for a closer look

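In 32 groups of 5 or 6 libraries (8 genes in 4 groups), the highest or lowest library stood far from the others in 2, both of them library 12 in WT SH. Mbp was at 3118.83 CPM there, and the next library was at 2615 CPM, a gap that took up 0.631 of the range of the group. Mal was at 279.139 CPM, and the next library was at 230.2 CPM, a gap of 0.81 of the range. Chance alone puts about 1 in 20 groups past this limit. In library 33B, which had failed quality control, the 8 genes were all within the range of the other 22, from 27.9 CPM (Opalin) to 2032 CPM (Mbp). Library 34B, which had failed too, held 47 counts of Mbp and 0 of Mog and Opalin.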

How the results depend on the processing

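Over 22 fits that each left out 1 library, 8 of 8 myelin genes stayed lower in enrichment averaged over the genotypes (median -0.17 to -0.12), and 0 were called; the lowest adjusted p was between 0.0517 (without KD SH 6) and 0.192 (without KD EE 36A). In WT the median ran from -0.20 (without 17) to -0.06 (without 35A). Of 1824 alternative values of the 56 fitted values, 83 changed sign, and 1 came to be called (Opalin in MSK1 KD, -0.52, over the study's 17 libraries). The cause was not tested. No paired analysis was possible because the groups share no library numbers.

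The number of genes called for averaged enrichment (27) was 720 over the 17 libraries, 90 over all 24, 80 without the libraries with a letter in their code (all EE), 44 with DESeq2 size factors, 50 with total counts, 211 by DESeq2, 209 without a filter, 45 with at least 10 counts in every library, 49 by adjusted p alone and 302 without 12 and 35A, and 2 (without KD SH 1) to 287 (without WT EE 31B) without 1 library. WT EE against WT SH (0) gave 664 over the 17, 1 over all 24, 314 without the lettered libraries, 20 by DESeq2 and 7 without a filter. KD EE against KD SH (0) gave 325 over the 17, 3 by DESeq2 and 0 to 1 without 1 library (1 without 9). WT SH against KD SH gave 2 by DESeq2, and WT EE against KD EE gave 1 over the 17 and 0 to 1 without 1 library (1 without 9). The pairs that varied together (15) were 1 over the 17 libraries and 6 without library 12.

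Signs changed as follows. In WT EE against WT SH they became Mog 0.00158, Mag 0.0317, Cnp 0.0478, Opalin 0.123 and Mal 0.113 over the 17 libraries, Mag 0.000655, Cnp 0.0205, Opalin 0.0417 and Mal 0.0860 without 12 and 35A, Opalin 0.0689 and Mal 0.0577 without the lettered libraries, Mal 0.0152 with total counts, Mal 0.000158 with at least 10 counts. In WT SH against KD SH they became Cnp -0.0222 over the 17 libraries, Mbp -0.0232, Mag -0.00209 and Cnp -0.0607 without 12 and 35A, Cnp -0.0123 with total counts. In the interaction they became Mag 0.0600 over the 17 libraries, Mag 0.0642 without 12 and 35A, Mag 0.0155 without the lettered libraries. In averaged enrichment they became Mag 0.00166 over the 17 libraries, Mobp 0.0297 without the lettered libraries. In WT EE against KD EE they became Mag -0.00255 over all 24. In the averaged genotype value they became Mobp -0.0115 without 12 and 35A, Mobp -0.00550 and Mal 0.0172 without the lettered libraries, Mobp -0.000950 with total counts, Mbp 0.000253 with DESeq2 size factors, Mbp 0.000271 by DESeq2, Mbp 0.00232 without a filter.

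Without 1 library, signs also changed in WT EE against WT SH for Mobp (-0.0366 to 0.0676) and Mal (-0.0603 to 0.0531), in WT SH against KD SH for Mog (-0.0937 to 0.00536), Opalin (-0.0805 to 0.0339), Cnp (-0.0600 to 0.0453), Ermn (-0.113 to 0.0516), Mbp (-0.0226 to 0.0805) and Mag (-0.00171 to 0.137), in the interaction for Mag (-0.128 to 0.0101), in WT EE against KD EE for Mag (-0.0509 to 0.0621), in the averaged genotype value for Mbp (-0.0327 to 0.0192), Mal (-0.0382 to 0.0233), Mobp (-0.0211 to 0.0404) and Mog (-0.0133 to 0.0554).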
